A study of Homo sapiens with 9 samples.

Results

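RNA from MCF-10A cells with the E545K change in PIK3CA was compared with RNA from the parental line, labelled WT, in 3 libraries each. These are 6 of the 9 samples of the series, and all 6 stand in one deposited count table. MCF-10A is a human breast epithelial cell line that does not form tumours and needs added growth factors in culture. PIK3CA encodes p110-alpha, the catalytic subunit of class I phosphoinositide 3-kinase, and E545K, in the helical domain of the protein, is one of its common changes in breast cancer. In this line the change was put in by knock-in, so that it is expressed from the gene's own locus. All genes with at least 1 CPM (the gene count scaled to a common library size) in at least 3 of the 6 libraries were compared, which were 16383 of the 60609 genes in the table.

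The groups differ in more than the allele. Per the labels' protocols, WT cells were kept in 5% horse serum with epidermal growth factor (EGF) at 20 ng/ml, whereas E545K cells were maintained in the same medium with 0 ng/ml EGF. Both groups received insulin, hydrocortisone and cholera toxin throughout. For the last 24 h before harvest both were moved to assay medium with 0.2 ng/ml EGF and 1% stripped serum. Genotype, maintenance without EGF and the step from the old to the new EGF concentration therefore cannot be told apart in any result given here. The labels do not say whether the E545K line is a single clone, or whether the replicates were separate cultures, so that p-values reflect the scatter among these 6 libraries alone, part or all of which may be technical.

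In this pathway, receptors for growth factors and insulin recruit the kinase through its regulatory subunits, and the lipid it makes draws AKT to the membrane, which in turn acts on mTOR complexes, FOXO factors and other targets. Lipid phosphatases, and negative feedback on receptor adaptors, set how long the signal lasts. The EGF receptor feeds both this pathway and the RAS-ERK cascade, whose output is read in immediate early genes and in the phosphatases and adaptors that dampen it.

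The libraries held 95091894 to 136132315 counts. They separated by genotype along the first principal component, which held 91.7% of the variance, and log2 CPM correlated across genes at 0.998 within each group and at 0.968 to 0.969 between them. The epithelial identity on the label held in every library. The summed level of 7 epithelial markers was 6857 to 6964 CPM in WT and 4710.3 to 4781 in E545K, and that of 7 basal epithelial markers 31129 to 31736 and 26732 to 27210.0. All 7 epithelial markers fell, KRT8 most, and 2 basal markers rose while 5 fell. Of the markers of blood and immune cells, PTPRC, CD3E and HBB stayed under 0.1 CPM in all 6 libraries. The immune markers CD68 (mean 11.1 CPM in WT and 7.23 in E545K) and CD14 (5.23 and 5.16) were counted, and 85.6% of the exon bases of CD68 are shared. Among fibroblast markers COL1A1 was at a mean of 48.1 CPM in WT and 61.1 in E545K, and the others listed stayed below 1 CPM in every library. WT replicate 1 stood apart from the other WT libraries in a few genes of oestrogen-responsive luminal cells. TFF1, which encodes a trefoil peptide, was at 10.2 CPM there and at 0.515 and 0.754 in the others, and the receptor gene NPY1R was at 7.98 against 0.901 and 0.754. Named genes whose results rest on that library are given with and without it. Counts and medians of gene lists include it unless stated. In bulk RNA, fewer cells of a type and less RNA per cell cannot be told apart.

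PIK3CA (ENSG00000121879.5, chromosome 3, 179148114 to 179240093, plus strand, hg38) itself was at 44.5, 47.1 and 48.7 CPM in WT and 40.3, 38.7 and 38.3 in E545K. The 3 E545K libraries lay below all 3 WT libraries, and the fitted log2 fold change was −0.26 ± 0.03 (standard error; adjusted p = 3.86e-08, edgeR quasi-likelihood test). Such a lack of overlap was common. It held for 11516 (70.3%) of all genes tested and does not by itself set a gene apart, here or below. Of its exon bases, 35.2% lie in other annotated genes too, and counts per gene say nothing of which allele was read.

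A difference between the lines was measurable for most genes, and it was small for most of them. At an adjusted p under 0.05, 11163 genes (68.1%) were called, 5589 of them higher in E545K (34.1%) and 5574 lower (34%). Scaling to library totals alone, which moves the median of all genes by 0.08 on the log2 scale, made 63.9% of the calls higher, against 50.1% with TMM scaling, so that directions of small changes depend on the scaling. Of the calls, 888 were at least 2-fold (5.42% of genes tested), with 555 higher (3.39%) and 333 lower (2.03%). Changes of at least 4-fold leaned further towards rises, with 163 genes higher and 66 lower, as did those of at least 16-fold, with 29 higher and 12 lower. At least 32-fold, 10 rose and 6 fell, where the lean was no further than at 2-fold. The lean to rises of at least 2-fold held in every range of abundance below 200 CPM. Among 1783 genes with a mean below 2 CPM, 11% rose and 5.55% fell at least 2-fold. Among 3337 genes at 50 to 200 CPM, 37 rose and 26 fell at least 2-fold. Of the 725 genes at 200 CPM or more, only 6 rose (0.828%) and 11 fell (1.52%) at least 2-fold. With TMM scaling 197 of those 725 genes rose and 450 fell by any amount, but directions of small changes depend on the scaling.

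**Figure D1:**
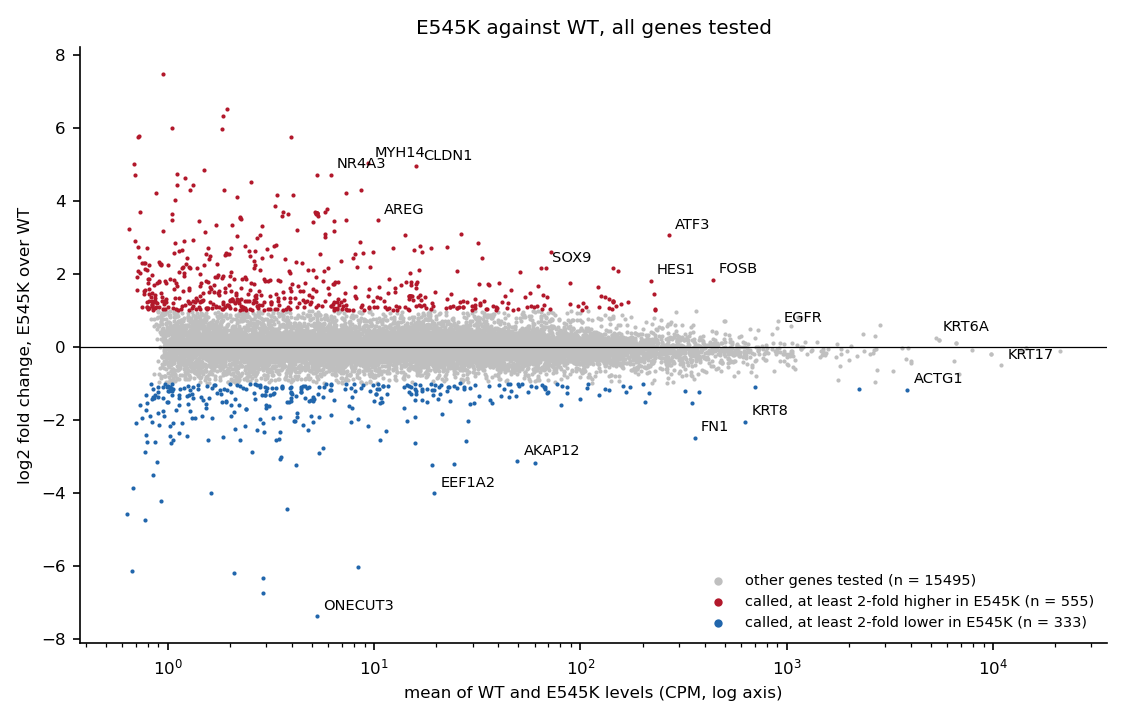
Each point is 1 of the 16383 genes tested, with the mean of its WT and E545K levels in CPM on a log axis and its log2 fold change, E545K over WT, on the other. The 555 red points above and 333 blue points below are the calls of at least 2-fold, and the most abundant genes at the right lie mostly at or below 0.

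The steepest rises were ranked among protein-coding genes called at least 2-fold, with a mean of 10 CPM or more in the higher group, no overlap between groups and under 20% of exon bases shared. Claudin-1, a sealing protein of tight junctions (CLDN1, ENSG00000163347.6, chromosome 3, 190305707 to 190322446, minus strand), was at 1.09, 1.03 and 0.884 CPM in WT and 31, 31.1 and 31.2 in E545K, a rise of 4.94 ± 0.07 (edgeR adjusted p = 3.47e-32). The fitted change was 30.8-fold. POF1B, an actin-binding protein of epithelia, was at 0.829, 0.740 and 0.647 CPM in WT and 13.3, 13.8 and 14.5 in E545K. The EGFR ligand amphiregulin (AREG, ENSG00000109321.11, chromosome 4, 74445136 to 74455005, plus strand) was at 2.13, 1.61 and 1.29 CPM in WT and 18.4, 19.5 and 19.5 in E545K, and the nuclear receptor NR4A3 at 0.369, 0.579 and 0.431 CPM in WT and 12.2, 11.8 and 11.6 in E545K. No library of one group reached the range of the other for any of these genes, as the ranking rule required. The largest rise by this ranking belonged to MYH14, a non-muscle myosin heavy chain, at 0.995, 0.236 and 0.259 CPM in WT and 17.9, 18.8 and 18 in E545K. Its log2 fold change of 5.04 became 6.20 without WT replicate 1, which held the highest WT level. Further members of the 15 steepest rises were PCLO, a scaffold of secretory sites (4.72), SVEP1, a large extracellular adhesion protein (3.07), and HSD11B2, which inactivates cortisol and rose from 4.25 to 29 CPM. ATF3, EGR2, EGR3, EGR4, FOSL1, DUSP4 and DUSP5 made up the rest and are taken up with their families.

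Falls were ranked by the same rule. The transcription factor ONECUT3 (ENSG00000205922.5, chromosome 19, 1753506 to 1780988, plus strand) went from 9.77, 11.5 and 10.1 CPM in WT to 0.0217, 0.0570 and 0.122 in E545K, where single libraries held as few as 3 reads. EEF1A2, a translation elongation factor normally restricted to nerve and muscle, was at 37.1, 36.7 and 36.3 CPM in WT and 2.09, 2.07 and 2.75 in E545K. AKAP12, a scaffold that anchors protein kinase A, was at 86.5, 91 and 88.8 CPM in WT and 10.03, 10.3 and 10.2 in E545K (log2 fold change −3.12 ± 0.03, edgeR adjusted p = 6.64e-35). All WT libraries lay above all E545K libraries for this scaffold, as the ranking rule required. Decorin, a matrix proteoglycan (DCN), fell by 2.59, the myosin light chain MYL9 by 2.65, fibronectin (FN1) by 2.49, the serine protease inhibitor SERPINA5 by 2.55, the fucosyltransferase FUT11 by 2.31 and the adhesion molecule MCAM by 2.02, all on the log2 scale. Keratin 8 (KRT8, ENSG00000170421.12, chromosome 12, 52897187 to 52949954, minus strand), a luminal-type keratin, was at 1050.0, 992 and 994 CPM in WT and 245, 243 and 248 in E545K. Also in the 15 steepest falls were the synaptic scaffold gene DLG4, the olfactomedin OLFML2A, the vasodilator peptide gene ADM (33.2 to 9.37 CPM), the thrombin receptor F2R and the semaphorin SEMA3B.

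Ranked by difference in CPM rather than by ratio, a scale that also grows with gene length, the keratin KRT17 had the largest fall, with 12846, 12901 and 12777 CPM in WT and 8976, 9139 and 9092 in E545K. TGFBI, a secreted matrix protein, fell from 8597 to 5140.2 CPM, the cytoplasmic actins ACTG1 from 5327 to 2369 CPM and ACTB from 7321 to 5575 CPM, and the actin crosslinker FLNA from 3524 to 1810.0 CPM. SLC7A5, the large neutral amino acid transporter, fell from 5611 to 3136 CPM, glutamine synthetase (GLUL) from 3101 to 1401 CPM and the hair-type keratin KRT81 from 4591 to 3376 CPM. Ferritin heavy chain (FTH1) fell from 3999.9 to 2549 CPM, but 63.2% of its exon bases are shared, and BEST1, which overlaps it, is uncertain for that reason. On the other side KRT6A had the largest rise in CPM, from 4840.4 to 5781 CPM, followed by the cyclophilin PPIA, the desmosomal plakin DSP (2050.0 to 2638 CPM), the calcium-binding protein S100A2, FOSB, the laminin chain LAMB3 (688 to 1126 CPM), ATF3, EGFR and the Notch target HES1 (97 to 342 CPM). With all 9 libraries in 1 model S100A2 was not called (0.31, adjusted p = 0.0686, edgeR). PPIA and EGFR lie in a part of chromosome 7 where nearly all genes were higher, described last.

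**Figure D2:**
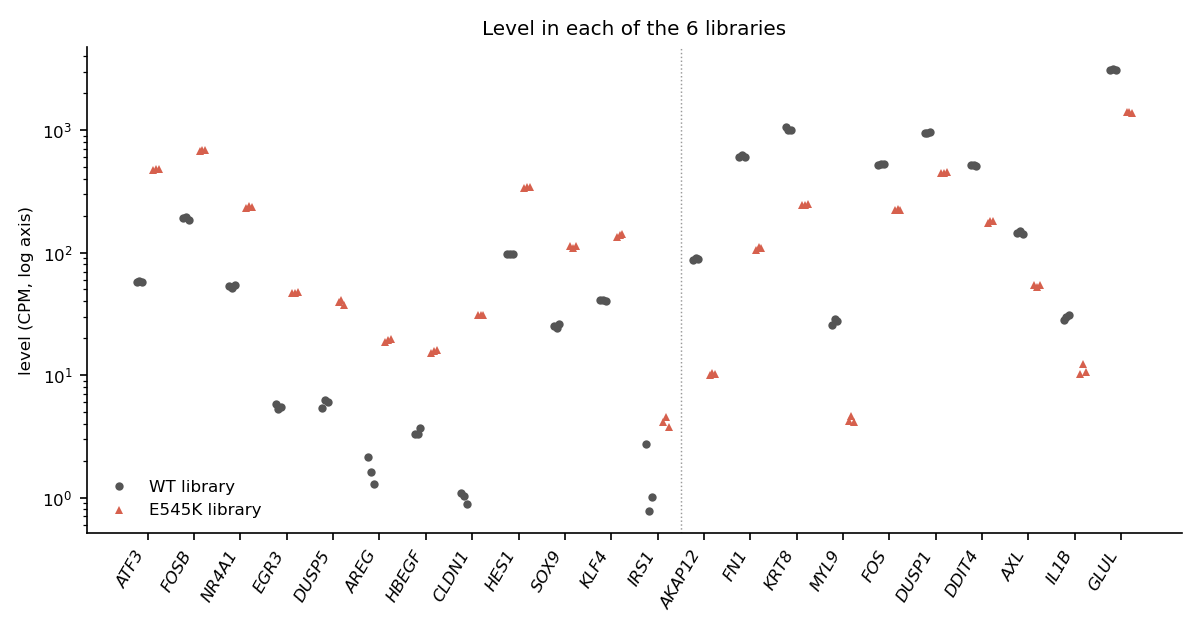
Level in CPM, on a log axis, of 22 genes in each of the 3 WT libraries (circles) and 3 E545K libraries (triangles), with genes that were higher in E545K left of the dotted line. Replicates lie close together for nearly all genes, and the WT libraries of IRS1 spread most, at 2.72, 0.772 and 1.0 CPM.

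Transcripts of the PI 3-kinase system itself changed gene by gene rather than as a set. Of 15 class I subunits and phosphoinositide phosphatases, 7 rose and 4 fell, with a median log2 fold change of 0.01 against 0.0007 over all genes tested. For this and the following lists, the shares of all genes tested were 34.1% higher and 34% lower. At least 2-fold, they were 3.39% and 2.03%. The catalytic subunit p110-delta (PIK3CD) was at 44.2, 44.9 and 44.5 CPM in WT and 24.5, 25.4 and 24.7 in E545K, lower in every E545K library, while p110-beta (PIK3CB) did not pass the test (0.01, adjusted p = 0.718, edgeR), except with library totals only (0.09, adjusted p = 0.0102). All 3 regulatory subunits tested rose, PIK3R2 by only 0.08. PIK3R3, which encodes p55-gamma, rose from 35.6 to 75.2 CPM and PIK3R1, which encodes p85-alpha, from 81.5 to 107 CPM. Among the phosphatases that remove the lipid signal, the 5-phosphatase SHIP1 (INPP5D) was at 68.1, 70.3 and 69.4 CPM in WT and 177, 182 and 184 in E545K, its E545K libraries all above every WT library, and the 4-phosphatase INPP4B rose from 16.5 to 34.2 CPM. SHIP2 (INPPL1) went the other way, from 216 to 138 CPM.

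Downstream, falls were commoner. Of 22 genes of the AKT-mTOR core and its regulators, 7 rose and 13 fell, with a median of −0.11 (−0.03 with library totals only). AKT1 fell by 0.29 and AKT2 by 0.24, and SGK1, a kinase related to AKT, fell from 127 to 87.9 CPM. MTOR itself rose from 83.9 to 115 CPM. DDIT4 (REDD1), an inhibitor of mTOR complex 1 that FOXO factors and glucocorticoids induce, was at 515, 517 and 513 CPM in WT and 174, 179.9 and 183 in E545K, with every E545K library below every WT library, although 41.2% of its exon bases are shared. The insulin and IGF genes split evenly, with 5 of 10 higher and 5 lower. The adaptor IRS1 was at 2.72, 0.772 and 1.0 CPM in WT and 4.15, 4.58 and 3.78 in E545K, and its log2 fold change of 1.41 became 2.23 without WT replicate 1. Its sister adaptor IRS2 fell by 0.49 and the insulin receptor INSR by 0.64. The IGF carriers diverged, since IGFBP2 rose from 6.58 to 18.6 CPM and IGFBP6 fell from 182 to 81.4 CPM. GRB10 and IGFBP3, which also rose, lie in the raised part of chromosome 7.

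Of 16 EGFR family receptors, ligands and regulators, 9 rose and 3 fell, and 5 rose at least 2-fold. Ligands led. Besides AREG, heparin-binding EGF (HBEGF) was at 3.29, 3.29 and 3.66 CPM in WT and 15.2, 15.7 and 16.1 in E545K, epigen (EPGN) rose from 62.5 to 144 CPM and TGFA from 21.6 to 31.7 CPM, and the neuregulin NRG4 rose by 2.11, with 38.2% of its exon bases shared. NRG1 and betacellulin (BTC) did not pass the test. Of the receptors, EGFR rose from 744 to 1057 CPM, whereas ERBB3, which signals to PI 3-kinase most directly, fell from 68.3 to 40.01 CPM and ERBB2 by 0.27. ERRFI1, an intracellular inhibitor of EGFR, rose from 85 to 202 CPM.

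**Figure D3:**
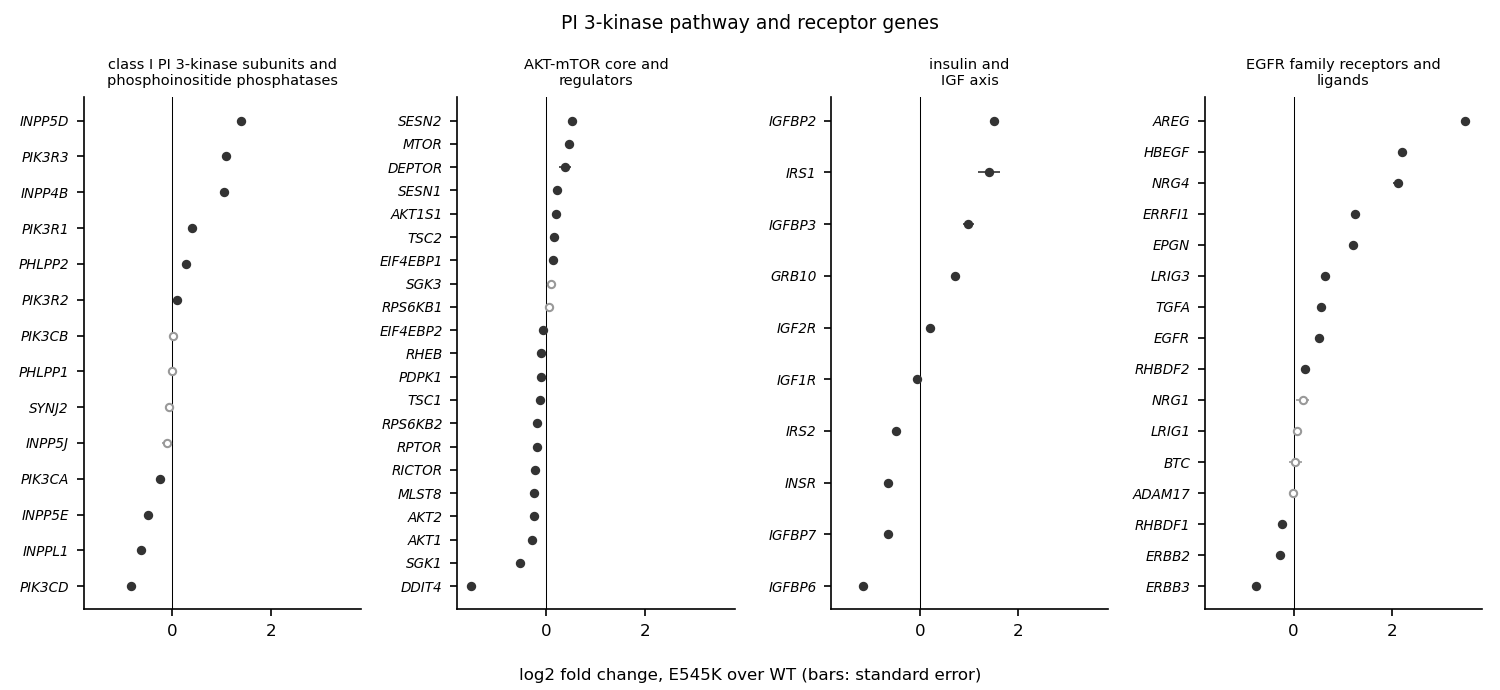
Log2 fold change, E545K over WT, of members of 4 lists, with standard errors as bars that are often smaller than the symbol. Filled symbols passed the test and open ones did not. The EGFR ligands AREG, HBEGF and NRG4 lie farthest to the right and DDIT4 farthest to the left.

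Feedback genes of the ERK cascade were higher in E545K with few exceptions. Of 11 Sprouty, SPRED and PEA3-type genes, 9 rose and 0 fell, with a median of 0.83. SPRED1, an inhibitor of RAF activation, was at 5.15, 5.39 and 5.01 CPM in WT and 17, 15.1 and 15.9 in E545K, TRIB1, a pseudokinase that recruits a ubiquitin ligase, rose from 29.5 to 94.6 CPM, PHLDA1 from 5.92 to 24 CPM, and the ETS factor ETV5 from 0.427 to 2.70 CPM. SPRY2, at 3.06 to 3.30 CPM, did not pass the test. Of 11 dual-specificity MAP kinase phosphatases, 8 rose and 2 fell. DUSP5, a nuclear ERK phosphatase, was at 5.41, 6.26 and 6.02 CPM in WT and 39.5, 40.6 and 37.2 in E545K, and DUSP4, another nuclear member, at 4.26, 4.32 and 4.27 CPM in WT and 26.9, 27.4 and 26.6 in E545K. Neither phosphatase had overlapping groups, as the ranking of steepest rises required, and the fitted rises were 6.68-fold and 6.29-fold. The cytoplasmic ERK phosphatase DUSP6 rose by 3.18, with 28.6% of its exon bases shared. DUSP1, a nuclear member that glucocorticoids also induce, went the other way and was at 953, 951 and 963 CPM in WT and 444, 447 and 457 in E545K.

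The immediate early factors rose broadly. Of 19 EGR, NR4A, KLF and IER genes tested, 18 rose and 1 fell, 7 of them by at least 2-fold, with a median of 0.82. NR4A3 rose most, followed by 3 EGR genes. EGR3, a zinc finger factor induced by growth factors, was at 5.80, 5.30 and 5.46 CPM in WT and 47.2, 47.1 and 47.3 in E545K, EGR2 at 1.95, 2.41 and 1.85 CPM in WT and 14.2, 15.4 and 15.6 in E545K and EGR4 at 3.44, 3.44 and 3.0 CPM in WT and 20.2, 22.1 and 22.4 in E545K. In each of these genes the lowest E545K library was above the highest WT library, as the ranking of steepest rises required. EGR1 rose only from 609 to 834 CPM. The orphan nuclear receptor NR4A1 was at 52.9, 51.7 and 53.9 CPM in WT and 229.9, 241 and 234 in E545K, and the differentiation factor KLF4 rose from 40.9 to 138 CPM. The single fall was that of SRF, the serum response factor, from 93.6 to 69.9 CPM.

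Serum response factor binds the CArG box, and CREB-type factors bind the palindrome TGACGTCA, both known elements of such promoters. The first 3 stretches below carry CArG boxes in genes of this list, and the last is shown because AREG was the leading ligand. All are reference sequence from RefSeq (GRCh38.p14), 5′ to 3′ on the gene's strand, and capitals mark the match, which may lie on either strand. EGR1 is at chr5:138465334-138465445 on the plus strand and EGR2, upstream of 1 of its 3 listed start sites, at chr10:62816388-62816477 on the minus strand. SRF, upstream of 1 of its 2 listed starts, is at chr6:43171199-43171268 and AREG at chr4:74445031-74445118, both on the plus strand.
EGR1: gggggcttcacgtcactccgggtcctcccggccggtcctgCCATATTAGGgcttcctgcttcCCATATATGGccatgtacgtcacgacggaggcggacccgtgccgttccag
EGR2: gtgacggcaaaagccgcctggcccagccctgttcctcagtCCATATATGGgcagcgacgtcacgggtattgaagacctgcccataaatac
SRF: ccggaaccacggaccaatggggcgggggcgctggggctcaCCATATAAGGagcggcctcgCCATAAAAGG
AREG: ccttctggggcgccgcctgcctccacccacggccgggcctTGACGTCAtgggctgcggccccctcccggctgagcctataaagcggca
The 250 bases upstream of each listed start were searched on both strands. RefSeq promoters were matched for 15 of the 19 genes, 22 starts in all. Of these 22, 3 held a CArG box, against 1.06% of the 15914 promoters of genes tested and 1.16% of all 35116 promoters. TGACGTCA was in 1, of MAFF, against 2.46% for genes tested and 1.65% for all. The AP-1 site TGANTCA was in 0 of the 22, against 4.64% for genes tested and 6.57% for all. SRF and EGR1 each hold 2 CArG boxes in this window, and SRF fell while EGR1 rose.

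The AP-1 and ATF factors did not move as a block, with 9 of 17 higher and 6 lower. ATF3, a stress-induced repressor and activator, was at 57.7, 58.2 and 57.3 CPM in WT and 474, 481 and 481 in E545K. FOSB was at 191, 195 and 185 CPM in WT and 675, 686 and 689 in E545K and FOSL1 at 5.26, 4.44 and 5.16 CPM in WT and 31.4, 33.4 and 33.2 in E545K. These 3 genes had no overlap between groups, like 70.3% of all genes tested, and the fitted rise of FOSB was 3.59-fold. FOS itself fell, from 528 to 224 CPM, as did FOSL2 from 560.4 to 409.6 CPM, while JUN had a log2 fold change of −0.07, which became 0.01 and was not called with library totals only, and −0.04, also not called, without E545K replicate 1, and which was not called with all 9 libraries in 1 model either (−0.07, adjusted p = 0.1345, edgeR). Of 23 genes of cAMP signalling, 13 rose and 8 fell. The phosphodiesterase PDE3B, which AKT is known to activate, was at 0.497, 0.611 and 0.614 CPM in WT and 7.20, 6.90 and 7.18 in E545K, and PDE7B rose from 0.793 to 3.28 CPM. Adenylate cyclase ADCY7 fell by 1.08 (41.6% of exon bases shared), beside AKAP12. Genes induced by glucocorticoids, which both media contained as hydrocortisone, split 8 against 8. GLUL, DUSP1, TSC22D3 (296 to 159 CPM) and ZBTB16 (147 to 92 CPM) fell, FKBP5 did not pass the test (−0.02, adjusted p = 0.172, edgeR, and 0.05 with library totals only), and ANGPTL4 rose from 2.38 to 13.8 CPM.

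Other receptor systems changed in single members. Of 15 receptor tyrosine kinases outside the EGFR family, 4 rose (26.7%) and 6 fell (40%), near the 34.1% and 34% of all genes tested. AXL was at 146, 149 and 141 CPM in WT and 54.1, 52.5 and 54.7 in E545K, and no other member of that list changed 2-fold. Of 16 ephrin receptors and ephrins, 5 rose and 8 fell, with a median of −0.11. EPHA2, an ephrin receptor, rose from 38.7 to 99.7 CPM, EPHA3 from 0.321 to 1.53 CPM and EPHA4 from 5.53 to 10.1 CPM, whereas the ligand EFNB3 fell from 25 to 11.2 CPM. The WNT antagonist DKK1 was at 119, 118 and 124 CPM in WT and 42.3, 39.1 and 39.2 in E545K. Among 30 WNT genes 9 rose (30%) and 11 fell (36.7%), again near the shares of all genes tested. The target AXIN2 fell by 0.57 (25.2% of exon bases shared), while the ligands WNT10A (0.88), WNT5B (0.87) and WNT5A (0.65) rose. Notch ligands and targets diverged as well. HES1, the canonical target, was at 96.5, 97.7 and 96.7 CPM in WT and 335, 344 and 346 in E545K, and NRARP rose from 6.32 to 20.8 CPM, but HES4 fell from 31.3 to 14.7 CPM and the ligand DLL1 from 3.88 to 0.845 CPM. Of 29 TGF-beta, activin and BMP genes, 8 rose and 14 fell. Inhibin beta A (INHBA) fell from 3.84 to 0.655 CPM although it lies in the raised part of chromosome 7, the latent TGF-beta binding protein LTBP3 fell from 117 to 54.9 CPM, and BAMBI, a decoy receptor, rose from 3.88 to 8.80 CPM.

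Most contractile and keratin transcripts were lower. Of 19 smooth-muscle-type contractile genes, 15 fell and 3 rose, with a median of −0.58. Besides MYL9 and FLNA, non-muscle myosin MYH9 fell from 2317 to 1241 CPM, the tropomyosin TPM4 from 710.4 to 406 CPM, the actinin ACTN4 from 1066 to 672 CPM and vinculin (VCL) from 373 to 238 CPM. MYH14 and calponin 3 (CNN3, 33.5 to 52.2 CPM) rose. Of the smooth muscle markers, DES, ACTG2 and MYH11 lay at or below 1.06 CPM in every library, and the summed level of all 5 was 27.5 to 28.6 CPM in WT and 36.1 to 40.3 in E545K, nearly all of it SMTN. Of 18 keratins, 13 fell and 4 rose, with a median of −0.40. KRT15 fell from 2126 to 1488 CPM, KRT7 from 4559 to 3485 CPM, KRT18, the partner of KRT8, from 388 to 273 CPM, and KRT14 from 48.7 to 28.5 CPM. KRT19 was called lower with all libraries (10.01, 1.63 and 1.70 CPM in WT and 1.45, 1.63 and 1.57 in E545K), but without WT replicate 1 its log2 fold change was −0.11 and it was not called (adjusted p = 0.578, edgeR). KRT16 rose from 167 to 233 CPM, and KRT23 was at 0.00754, 0.0214 and 0 CPM in WT and 1.78, 2.09 and 1.75 in E545K.

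Of the small GTPases named here, RHOV was at 19.7, 19.9 and 19.8 CPM in WT and 80.8, 82.7 and 84.2 in E545K and RND3 at 74.5, 72.9 and 72.9 CPM in WT and 192, 188 and 191 in E545K. Neither showed overlap between groups, like 70.3% of all genes tested. RHOF fell by 1.03, with 71% of its exon bases shared, and RAC3 from 15.4 to 8.16 CPM. NEDD9, a scaffold of integrin signalling that belongs to none of the lists and was picked after its values were seen, was at 20.4, 20.3 and 21.3 CPM in WT and 124, 124 and 124 in E545K.

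Junction and adhesion genes fell more often than they rose, and the exceptions were large. Of 19 tight-junction genes, 11 fell and 5 rose. CLDN1 and CLDN4 (25.1 to 58.4 CPM) rose, as did JAM3 (7.87 to 23.9 CPM), while occludin (OCLN) fell from 5.14 to 3.58 CPM, CLDN7 from 138 to 105 CPM and the scaffold TJP3 from 19.8 to 12.8 CPM. Of 21 desmosome and adherens genes, 13 fell and 6 rose. EPCAM was at 36, 36.4 and 36.7 CPM in WT and 19.4, 19.7 and 20.7 in E545K, E-cadherin (CDH1) fell from 556 to 410.1 CPM, p120-catenin (CTNND1) from 519.9 to 362 CPM and plakoglobin (JUP) from 1161 to 839.9 CPM, whereas beta-catenin (CTNNB1) rose from 301 to 371 CPM and N-cadherin (CDH2) from 3.93 to 8.47 CPM. Of 22 integrins and laminins, 13 fell and 8 rose. The shared beta-1 chain (ITGB1) was at 898, 890.4 and 908 CPM in WT and 522, 518 and 526 in E545K and the laminin chain LAMB3 rose. ITGA4 rose from 7.34 to 24.4 CPM, LAMA1 from 2.96 to 9.05 CPM and ITGB8, which lies on the raised part of chromosome 7, from 93.3 to 204 CPM.

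Matrix genes changed in both directions. Among 28 matricellular proteins and proteoglycans 14 rose and 10 fell. Thrombospondin-1 (THBS1) was at 104, 101 and 102 CPM in WT and 242, 237 and 239 in E545K, all E545K libraries above all WT libraries, while versican (VCAN) fell from 3.05 to 0.184 CPM and the crosslinking enzyme LOXL2 from 64 to 28 CPM. Of 19 collagens, 11 rose and 3 fell, and the largest change was the fall of COL6A3 (6.26 to 0.782 CPM). Matrix proteases and their inhibitors fell in 17 of 27 cases and rose in 7. MMP14, a membrane-bound metalloprotease, fell from 473 to 304 CPM, MMP2, which it activates, from 2.68 to 0.454 CPM, the inhibitors TIMP1 from 202 to 106 CPM and TIMP3 from 814 to 550.4 CPM, and the cathepsin CTSV from 43.6 to 14.7 CPM. The urokinase receptor (PLAUR) rose from 4.56 to 8.79 CPM.

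Transcription factors of epithelial differentiation included some of the larger rises. Of 31 mammary and squamous lineage factors 12 rose and 14 fell, but 7 of the rises and 2 of the falls were at least 2-fold. SOX9, a factor of mammary progenitors, was at 25.1, 24.1 and 26 CPM in WT and 113, 109 and 112 in E545K. ZNF750, a driver of late epidermal differentiation, was at 5.10, 4.70 and 4.75 CPM in WT and 29.5, 30.05 and 28.6 in E545K, and its partners GRHL3 and GRHL1 rose from 3.02 to 6.79 CPM and from 2.81 to 7.22 CPM. The pioneer factor FOXA1 rose from 3.78 to 9.53 CPM. TP63, the basal master factor, fell by 0.25, oestrogen receptor (ESR1) from 12.7 to 7.13 CPM and RUNX2 from 3.68 to 1.11 CPM. Of 16 cornified envelope genes 7 rose and 7 fell, but 5 of the rises and 1 of the falls were at least 2-fold. The skin proteases KLK5 (0.209 to 4.88 CPM), KLK7 (0.842 to 9.22 CPM) and KLK10 (0.408 to 2.06 CPM) and involucrin (IVL, 2.39 to 4.82 CPM) rose, while SPRR1B fell from 20.8 to 8.91 CPM and periplakin (PPL) from 559 to 375 CPM.

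Secreted immune mediators were mostly higher, from a low base. Of 17 chemokines, interleukins and colony-stimulating factors tested, 13 rose and 1 fell, with a median of 0.69. The neutrophil attractant CXCL8 was at 0.467, 0.386 and 0.550 CPM in WT and 2.27, 1.81 and 2.18 in E545K, CXCL2 rose from 8.59 to 14.4 CPM, CXCL3 from 1.14 to 3.14 CPM, CCL20 from 2.24 to 5.61 CPM and TSLP from 0.752 to 1.67 CPM. The summed level of 6 immune markers was 16.2 to 16.9 CPM in WT and 12.2 to 12.95 in E545K, nearly all of it CD68 and CD14. A further 15 listed genes, IL6 and CCL2 among them, were below the level needed for testing. CXCL14 was the single fall, from 15.8 to 5.90 CPM. Of 12 genes of prostaglandin synthesis and reception, 4 rose and 5 fell, with a median of −0.08 (0.0007 with library totals only). The synthase PTGS2 was at 2.41, 2.51 and 2.68 CPM in WT and 15.3, 15.5 and 14.6 in E545K and PTGER4, a prostaglandin receptor, rose from 4.49 to 11.7 CPM. Of 20 NF-kB subunits and feedback genes, 9 rose and 6 fell, with a median of 0.05, and only 1 rose at least 2-fold. TNFAIP3, the feedback inhibitor of NF-kB, rose from 23.3 to 105 CPM. Interleukin-1 genes parted, with IL1B lower (28.3, 30.02 and 31 CPM in WT and 10.3, 12.2 and 10.6 in E545K) and IL1A higher (27 to 52.6 CPM). Of 33 interferon-stimulated genes, 21 rose and 7 fell. SAMD9L rose from 2.98 to 9.74 CPM and IFI44 from 0.663 to 2.24 CPM, and GBP2 fell from 29.8 to 12.1 CPM. Of 21 antigen presentation genes, 4 rose and 8 fell, none of them 2-fold, and without WT replicate 1, 2 rose and 8 fell.

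Genes of proliferation were mostly higher, by small amounts. Of 39 genes of DNA replication, 30 rose and 2 fell, and of 44 mitotic genes, 33 rose and 2 fell, with medians of 0.31 and 0.32. CDC7, a kinase that fires replication origins, rose from 2.40 to 4.76 CPM, the clamp PCNA from 23.4 to 40.4 CPM, CDK1 from 8.20 to 13.7 CPM and the proliferation marker MKI67 from 35.1 to 47.8 CPM, whereas the licensing factor CDT1 fell from 20.4 to 13 CPM and FOXM1 by 0.32. Upstream of these, cyclin D1 (CCND1) was at 70.8, 65.3 and 66.6 CPM in WT and 135, 134 and 139 in E545K and E2F7 rose from 3.88 to 8.44 CPM, while cyclin D2 (CCND2) fell from 167 to 124 CPM and the inhibitor p27 (CDKN1B) from 34.3 to 25.8 CPM. The inhibitor p21 (CDKN1A) rose from 278 to 421 CPM. Of 17 BCL2 family genes, 11 fell and 4 rose. PMAIP1 (NOXA), a pro-death member, was at 3.92, 3.61 and 4.28 CPM in WT and 11.5, 12 and 13.2 in E545K. The falls included the pro-death genes BMF (22.9 to 13.7 CPM) and BCL2L11 (46.1 to 37.5 CPM), both known FOXO targets, and the survival gene MCL1 rose from 538 to 666 CPM.

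Metabolic lists moved to different extents. Cholesterol synthesis and uptake genes fell in 19 of 28 cases and rose in 6, none by 2-fold, with HMGCS1 lower by 0.51 (37.7% of exon bases shared) and FDPS, an exception, higher by 0.41. Fatty acid synthesis split 11 against 11, with log2 fold changes of 0.07 for FASN and 0.03 for SCD, which did not pass the test. FASN was not called with all 9 libraries in 1 model (adjusted p = 0.276, edgeR), and SCD was called with library totals only (0.11), with DESeq2 (0.03) and at a minimum of 5 CPM (0.03). Glucose transporter SLC2A1 fell from 188 to 131 CPM within a glycolysis list that split 12 against 11. Transfer RNA synthetases that rose included MARS1, from 48.7 to 80.3 CPM and WARS1, from 39.1 to 64.5 CPM, beside falls of the amino acid transporters SLC7A5 and SLC1A5, and the cystine transporter SLC7A11 rose from 20.2 to 47.8 CPM. Of 23 ATF4 targets and serine synthesis genes, 18 rose and 4 fell, with a median of 0.23. At least 2-fold, 4 of them rose and 1 fell. PSAT1, of serine synthesis, rose and was at 23.5, 23.9 and 22.2 CPM in WT and 68.7, 68.3 and 70.03 in E545K. Ribosome biogenesis genes rose in 22 of 30 cases with a median of 0.18. Oxidative phosphorylation genes split 11 against 10 of 36, each below the share of all genes tested. Of the efflux transporters of conjugated drugs, 2 picked after their values were seen were ABCC2, which rose from 10.4 to 56.5 CPM, and ABCC3, from 16.5 to 54.8 CPM.

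**Figure D4:**
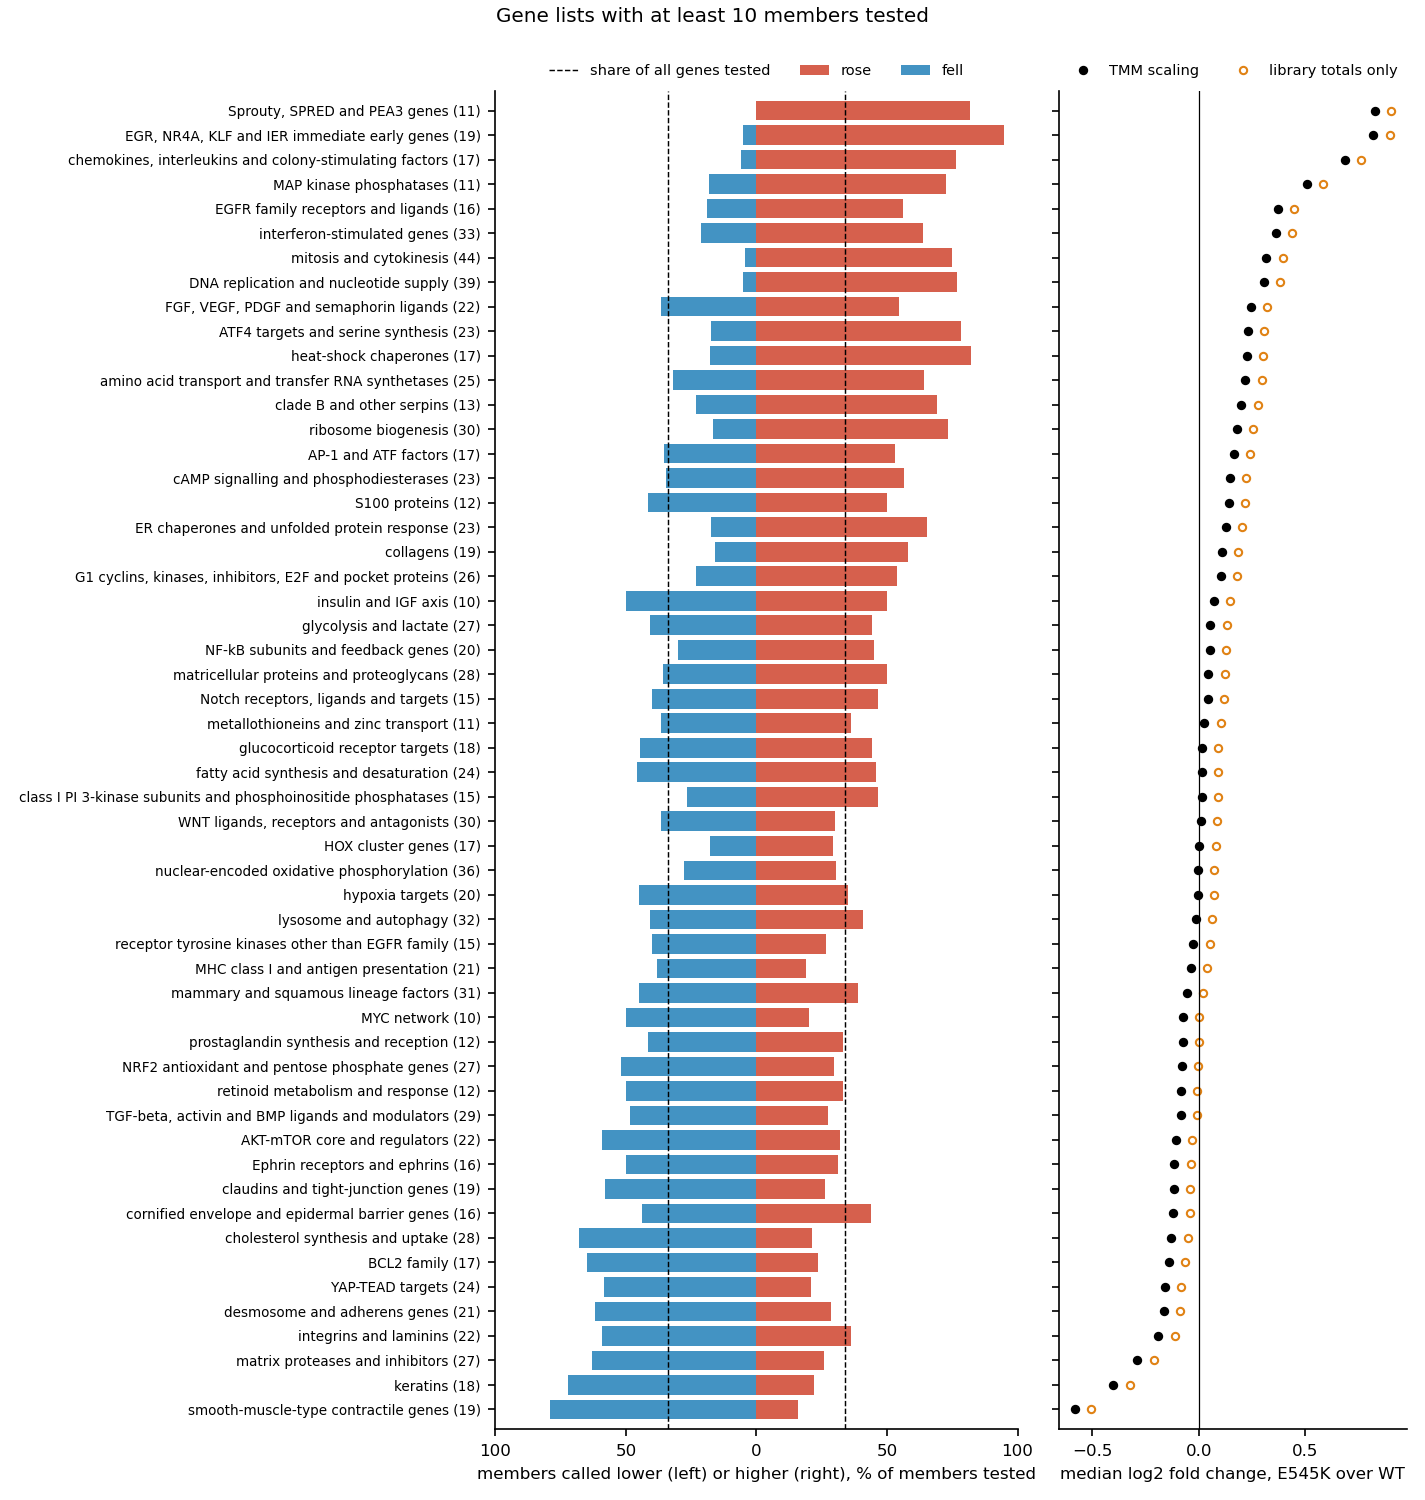
For lists with at least 10 members tested (number in brackets), bars give the share of members called higher (red, to the right) or lower (blue, to the left) in E545K, with the shares of all genes tested, 34.1% and 34%, as dashed lines, and points give the median log2 fold change with TMM scaling (filled) and with library totals only (open). Sprouty-type, immediate early and chemokine genes stand at the top and contractile genes and keratins at the bottom under both scalings.

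A few genes were near the detection floor in 1 line and clearly counted in the other. In E545K, 9 genes, 8 of them protein-coding, lay at 2 CPM or more in every library while every WT library was below 0.2 CPM. NUDT12, a peroxisomal hydrolase of NADH, was at 0.196, 0.129 and 0.0862 CPM in WT and 8.55, 7.16 and 7.56 in E545K, the WNT inhibitor APCDD1 at 0, 0.0858 and 0.0647 CPM in WT and 3.64, 3.52 and 3.75 in E545K, the blood group gene XG at 0.0301, 0.129 and 0.0216 CPM in WT and 3.96, 3.52 and 3.29 in E545K and the epoxide hydrolase gene EPHX4 at 0.0603, 0.0107 and 0.0431 CPM in WT and 3.77, 3.89 and 3.87 in E545K. SEMA3E, LAMC3, ZNF93, ZNF253 and the antisense gene MSC-AS1 complete this set. The converse pattern held in 4 genes. ANOS1, the gene of the adhesion protein anosmin-1, was at 5.56, 5.61 and 6.07 CPM in WT and 0.0577, 0.0855 and 0.0102 in E545K and DCP1B, an mRNA decapping factor, at 4.42, 4.08 and 3.90 CPM in WT and 0.0577, 0.0855 and 0.0204 in E545K, beside ONECUT3 and the noncoding LINC01322. Among long noncoding RNAs with a mean of 5 CPM or more in the higher group, H19, the imprinted transcript, was at 23.6, 22.6 and 23.4 CPM in WT and 5.24, 5.61 and 6.22 in E545K, and IGFL2-AS1 at 6.29, 6.42 and 5.80 CPM in WT and 26.9, 27.1 and 26.3 in E545K. SNHG15 rose from 5.16 to 13.4 CPM, and it lies in the raised part of chromosome 7.

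Directions clustered along some chromosomes. Of the 279 genes tested in the first 60 Mb of chromosome 7, 249 rose and 6 fell, with a median of 0.78, and the medians of the 3 E545K libraries against the WT mean were 0.73, 0.73 and 0.75. These genes are 1.7% of those tested but 12.6% of the rises of at least 2-fold. The rest of chromosome 7 had a median of −0.05. In the first 50 Mb of chromosome 5, 95 of 131 genes fell and 14 rose, with a median of −0.25, and of 73 genes beyond 90 Mb of chromosome 13 51 fell and 9 rose. Copy number was not measured, and its part in these results was not tested. Without the genes of the raised part of chromosome 7, 485 rises and 330 falls of at least 2-fold remain, and the lists described above keep their majority direction, except that the insulin and IGF genes, evenly split, become 3 higher and 5 lower, and the Notch and oxidative phosphorylation lists become even.

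**Figure D5:**
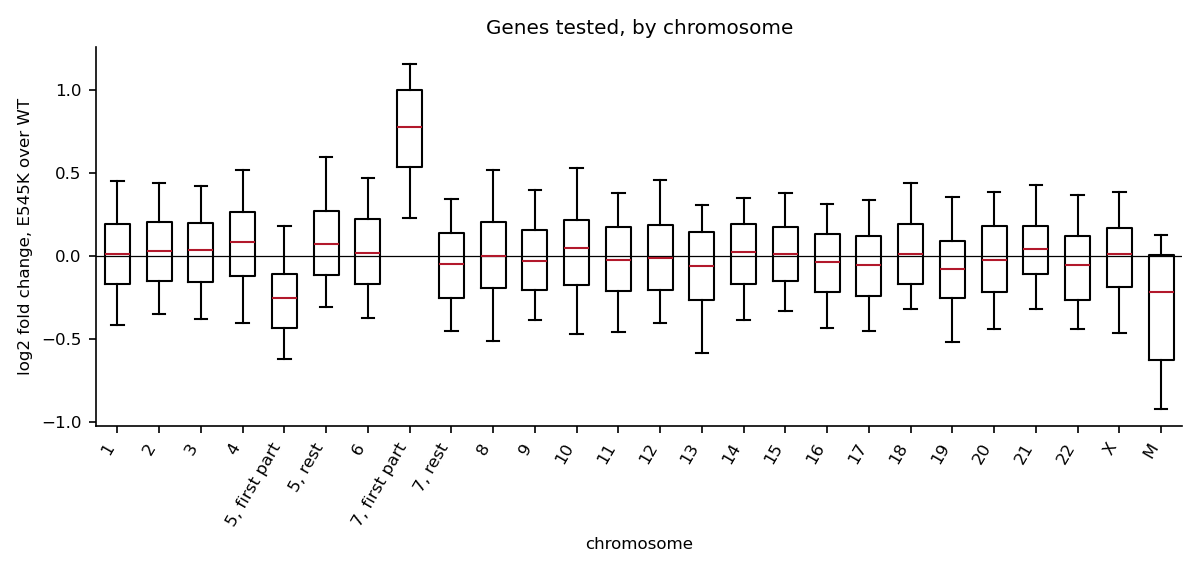
Log2 fold change, E545K over WT, of genes tested on each chromosome, with the median in red, boxes over the interquartile range and whiskers from the 10th to the 90th percentile. Chromosomes 5 and 7 are shown in 2 parts, and the first part of chromosome 7 lies above all others, with its median at 0.78.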

How the data were processed

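RNA was sequenced after removal of ribosomal RNA, as paired reads, per the labels' protocols. The deposited counts per gene were made by the authors with featureCounts 2.0.0 on GENCODE 32 exons of hg38, per the file headers, without strand, with mates counted singly and with reads shared by overlapping genes counted for each. The submitters' processing notes name STAR, SAMtools 1.5, FastQC, cutadapt and Trim Galore 0.4.0. Genes sharing 20% or more of their exon bases with others are therefore uncertain. The 3 columns called mutant in the table were taken as E545K. Names came from GENCODE 44 for 60295 of 60609 gene identifiers.

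Genes with at least 1 CPM in 3 of 6 libraries were fitted with edgeR 4.0.16 (R 4.3.3), TMM scaling and quasi-likelihood tests by genotype, adjusted by Benjamini-Hochberg over 16383 genes, after a test on simulated data. Standard errors were taken from the log2 fold change and its F value. CPM are per TMM-scaled library. At these depths 3 counts correspond to 0.0220 to 0.0315 CPM, for counting error only. Replicates differed by more than sampling noise, at 3.67 to 6.21 chi-square units per degree of freedom. Same-numbered libraries did not deviate together (correlations of −0.05, −0.01 and −0.06, against −0.02 to 0.06 for other pairs). Replicate 1 was the deepest library in both groups, at 136132315 counts in WT and 134245702 in E545K. Whether same-numbered samples were handled together cannot be decided from these values.

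Genes named were PIK3CA, the 15 largest fold changes and 10 largest CPM changes each way, the 5 largest for long noncoding RNAs, and up to 5 and 3 members of each list in its commoner and other direction, with further members as values; some genes and lists that this rule takes are not reported here. The comparison and the gene lists were chosen with earlier results of these data known. Alternatives covered scaling, DESeq2 1.42.0, filters, a 1.5-fold threshold test, the replicate block, all 9 libraries in 1 model, and each library left out.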

Additional observations from a re-analysis of the deposited data

How the results depend on the processing

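The number of genes called stayed within 1.5 times of 11163 under other scalings, DESeq2, other filters, protein-coding genes only and all 9 libraries in 1 model (9260 to 12585), and at 10522 to 10827 with each library left out. Testing for a change beyond 1.5-fold left 1438 genes, and PIK3CA, at −0.26, was then not called. The count of calls of at least 2-fold was 888. It became 2247 with no filter and 1989 with the filterByExpr defaults, where genes with few reads are added, and 454 at a minimum of 5 CPM, where genes are removed. It was 881 to 890 with each library left out, and PIK3CA was then at −0.29 to −0.23. With the replicate block 11019 genes were called, 891 of them at least 2-fold, PIK3CA stayed at −0.26 and no named gene lost its call. Library totals only raised the chromosomes and chromosome parts with a median above 0 from 15 to 23 of 26, and the lists from 32 to 41 of 58. Medians that turned positive there were those of the MYC, receptor tyrosine kinase, EMT, prostaglandin, antigen presentation, hypoxia, lysosome, oxidative phosphorylation and lineage factor lists. That scaling also turned JUN to 0.0064 and FKBP5 to 0.053, and leaving out each library gave NPY1R values of −2.23 to 0.24, the last without WT replicate 1. For genes near the minimum level, depth limits the precision.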

Other observations

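These values were picked after the data had been seen. A run of zinc finger genes on chromosome 19, from ZNF790 to ZNF571 (36817428 to 37594792, hg38), rose together. Of the 14 genes tested there, 13 of them named ZNF, 12 rose and 0 fell, 10 of them by at least 2-fold, with a median log2 fold change of 2.18. Most of those 10 had WT means below 1 CPM, such as ZNF790 at 0.341 CPM. One of the 10, ENSG00000267360, shares 91.3% of its exon bases. From ZNF14 to ZNF93 on the same chromosome, 4 of 5 genes tested rose, all at least 2-fold and all from WT means below 1 CPM. In both runs, genes below 1 CPM in WT passed the minimum level only through E545K and could enter only as rises. ZNF93 was at 0.106, 0.0214 and 0.0970 CPM in WT and 2.01, 2.18 and 2.21 in E545K, and ZNF253 at 0.196, 0.0429 and 0 CPM in WT and 2.11, 2.13 and 2.79 in E545K. Over all 399 protein-coding genes named ZNF with a number, 98 rose and 157 fell, and the median was −0.08.

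Clustered genes with variable first exons also rose together. All 15 PCDHA protocadherin genes tested rose at least 2-fold, with a median of 3.66, while the 22 PCDHG genes all rose, 0 of them 2-fold, with a median of 0.59. All 7 UGT1A glucuronosyltransferase genes rose at least 2-fold, with a median of 1.38. Members of the PCDHA, PCDHG and UGT1A clusters share exon bases (medians of 49.5%, 43.9% and 62.4%), so that reads of 1 member count for several and the genes are not independent measurements.

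Among genes that passed the minimum level for testing, 2 genes with at least 1 CPM in WT replicate 1 were at least 3-fold above both other WT libraries, NPY1R and KRT19, and 0 genes were so in any other library against its own group. Without that library NPY1R had a log2 fold change of 0.24 and was not called (adjusted p = 0.316, edgeR).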
